A study of Mus musculus with 95 samples.

Results

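The comparison examined here is that of Het against wild-type livers of the neo-out Q175 knock-in line, with 16 of the 95 RNA-seq libraries of the study (8 Het and 8 WT, each with 4 females and 4 males). The libraries were taken by the line, genotype and tissue in the sample titles, and each is 1 animal. Q175 mice model Huntington disease: they carry in the mouse Htt gene an expanded CAG repeat, which encodes a polyglutamine stretch in huntingtin. The neo-out Het animals carry 1 copy of the allele labelled Z_Q175 (neo-) KI (strain CHDI-81003019), in which the neomycin selection cassette is no longer present, and their WT animals come from the same line. All were on the C57BL6/J background and 6 months old, and the left lobe of the liver was taken. The neo-in line carries the z_Q175 KI allele with its cassette (strain CHDI-81003003) and gave another 8 Het and 8 WT livers, which share the model fit and serve here as a point of comparison. The 2 lines have WT animals of their own. The CAG repeat number of the neo-out Het animals was 179 to 208 (197.75 ± 9.36, SD, n = 8). Het and WT animals of a line were housed together, per the labels. The hour of tissue collection is not given in the sources used here.

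As background, huntingtin is a large scaffold protein that is made in most tissues, the liver included. The liver also holds a strong circadian clock. The activators CLOCK, BMAL1 (gene Arntl) and NPAS2 bind E-boxes and switch on the period (Per) and cryptochrome (Cry) genes, whose proteins shut the activators down. The same activators drive the REV-ERB receptors (Nr1d1, Nr1d2), which repress Arntl and Npas2. Output factors such as DBP and TEF then pass the rhythm on to metabolic genes, so the level of these transcripts in a liver depends on the hour at which it was taken.

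Expected counts per library were 36.8 M to 45.1 M in Het and 34.6 M to 68.4 M (M, mega) in WT livers. Mitochondrial genes held 9.14 to 11.01% of counts in Het and 8.62 to 11.2% in WT livers. The libraries carried the hepatocyte markers at a summed 128914 to 152227 CPM (counts-per-million) in Het and 131758 to 150461 CPM in WT livers, and no gene of that list of 14 was called. Markers of pancreas, fat, kidney, muscle and gall bladder summed to 0.247 to 0.800 CPM in Het and 0.228 to 0.547 CPM in WT livers, with 7 of 15 at 0 in all 16 libraries. Of the markers of macrophages, endothelium, stellate cells, bile ducts, lymphocytes, neutrophils and red blood cells none was called, against 0.533% of all genes tested. A share that small gives few calls in lists this short, the hepatocyte list included, so even cell composition is not shown. Log2 fold changes were above 0 for 13 of 16 macrophage, 15 of 16 endothelial, 12 of 16 lymphocyte and 3 of 20 stellate genes. They were above 0 for 0 of 9 bile duct, 1 of 5 neutrophil and 2 of 8 red blood cell genes. The summed level of every list overlapped between the groups. In whole tissue, fewer cells of a type and less RNA per cell cannot be told apart.

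The targeted gene and its chromosome were examined first. Htt (chr5:34761740-34912534, GRCm38, plus strand) lay at 29.1, 24.9, 24.8 and 30.2 CPM in Het females and at 22.1, 24.3, 28.1 and 26.7 CPM in Het males. The WT females had 33.7, 29.2, 39.0 and 36.7 CPM and the WT males 37.3, 39.6, 40.5 and 40.03 CPM. The lowest WT library, female 2, fell among the Het values, and the other WT libraries were above every Het one. Htt fell to 26.3 ± 2.73 CPM in Het livers, against 37.0 ± 3.87 CPM in WT livers (SD, n = 8 each), a log2 fold change of -0.49 (SE 0.07, adjusted p = 0.00065, edgeR). An exact two-sided permutation test of log2 CPM over the 16 livers gave p = 0.000311, where the smallest p it allows is 0.000155. The change was -0.35 in females (adjusted p = 0.133) and -0.64 in males (adjusted p = 0.00884). In the neo-in line it was -0.57 (adjusted p = 0.000151), and the difference between lines was 0.08 (adjusted p = 0.816). Msantd1 overlaps the Htt gene, so reads in the overlap could belong to either.

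The strongest change was on the same chromosome. Abhd1, a member of the alpha/beta hydrolase family that the annotation lists as a processed transcript (chr5:30950066-30955091, plus strand), lay at 21.5, 18.4, 25.5 and 23.0 CPM in Het females and 17.5, 21.6, 22.1 and 21.05 CPM in Het males. It lay at 2.16, 1.72, 1.82 and 1.30 CPM in WT females and 1.36, 1.16, 1.16 and 1.48 CPM in WT males. The groups did not overlap, and the lowest Het library was far above the highest WT one. The log2 fold change was 3.82 (SE 0.12, adjusted p = 9.06e-20), against 3.47 (SE 0.11, adjusted p = 6.38e-19) in the neo-in line, and 1.8 and 1.41 in cortex and striatum of the neo-out animals. Abhd1 overlaps Preb on the opposite strand over 4239 bases. Preb was at 84.9 ± 5.50 CPM in Het and 87.2 ± 9.52 CPM in WT livers (log2 fold change -0.04, adjusted p = 0.926). Because strand is not given in the sources used here, reads in the overlap cannot be assigned to either gene with certainty.

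Abhd1 ends 3806.65 kb before Htt begins. Of the 932 genes tested on chromosome 5, 9 were called (0.966%), against 0.533% of all genes tested. Htt was 1 of them, and those nearest to it were Atraid and Abhd1. The rest lay far beyond Htt, the first of them Slc34a2 at chr5:53038081-53071664, and they included Por of the clock output list. Atraid, named after its values were seen, fell to 44.1 CPM in Het livers, against 51.9 CPM in WT livers (log2 fold change -0.24, SE 0.05, adjusted p = 0.0405). Slc5a6 overlaps Atraid on the opposite strand over 613 bases, so reads there could belong to either. In the list of 17 measured genes of this stretch of chromosome 5 (Htt locus), Abhd1 rose, Htt fell and the other 15 did not pass the test, with a median log2 fold change over the list of -0.05, against -0.0026 over all genes tested.

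**Figure D1:**
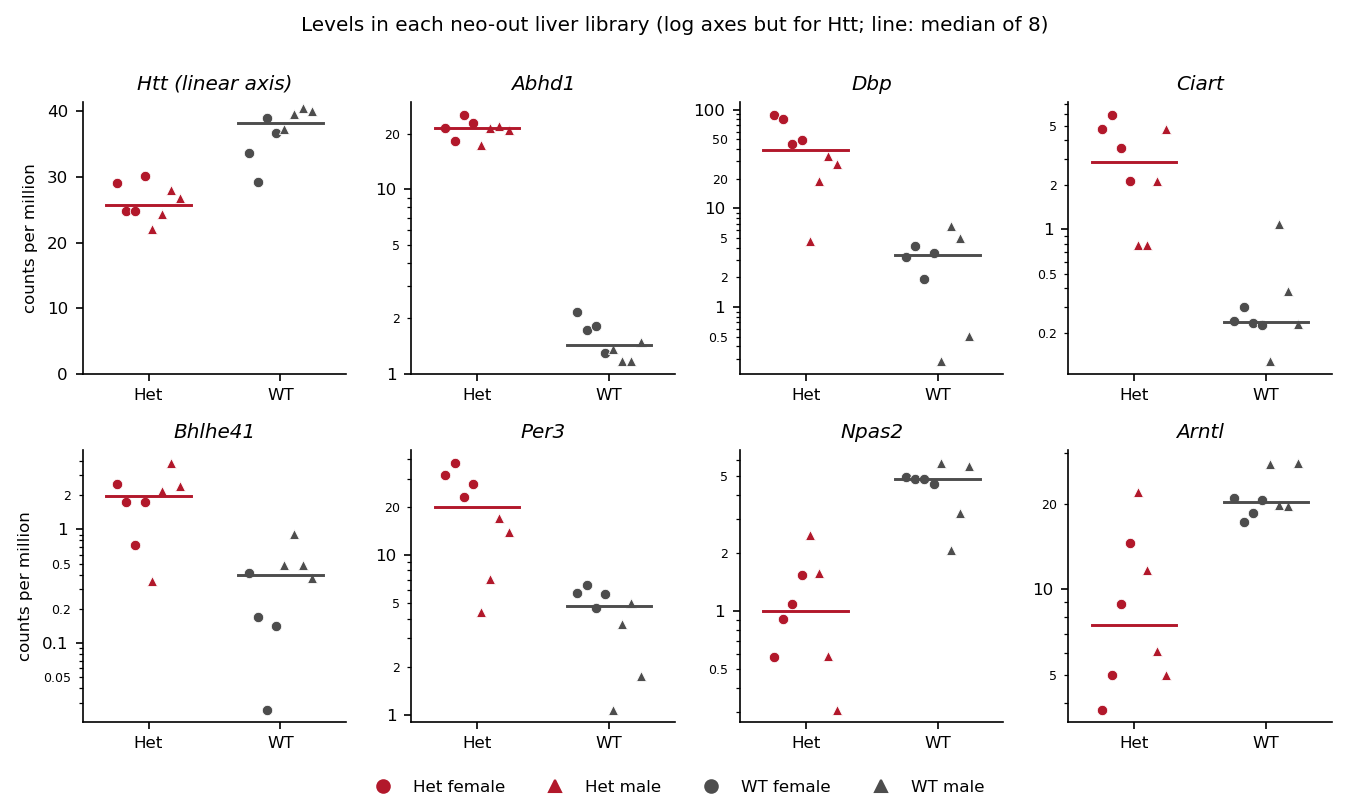
Level of 8 genes in each of the 16 neo-out liver libraries, in CPM (linear axis from 0 for Htt, log axes for the others), with Het left of WT, females as circles, males as triangles and a line at the median of 8. Abhd1 does not overlap between the groups, while Dbp, Ciart, Bhlhe41 and Per3 are mostly higher and Npas2 and Arntl mostly lower in Het livers, with Het male 1 near the WT values.

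Across the genome, 81 of 15208 genes tested were called at adjusted p below 0.05 (0.533%). In Het livers 48 rose (0.316%) and 33 fell (0.217%), and 1608 genes had an unadjusted p below 0.05. The median size of the change among called genes was 0.62 on the log2 scale, with 18 up and 6 down by 2-fold or more. The Het and WT libraries did not overlap for 16 genes (0.105%), of which 8 were called: Abhd1, Nr1d2, Clpx, Tns2, Jade1, Stra6l, Qsox2 and 9830144P21Rik. The last of these shares 5659 bases with Slc20a1 on the opposite strand, so its reads could belong to either. The count depended on single libraries: leaving out 1 gave 32 to 129. It moved by over 1.5 times without Het males 2 (129), 3 (32) or 4 (47), Het females 1 (40) or 2 (46), WT females 1 (53), 2 (40) or 3 (49), and WT males 1 (39), 3 (49) or 4 (42). Same-numbered animals are not paired by the labels. The p-values rest on the spread between animals within groups, estimated over all 32 livers, the neo-in ones included. A fit of the 16 neo-out livers alone called 97 genes, 60 of them among the 81. Of the genes named below, Cry2, Ppp1r3g and Egr1 lost their call in that fit. Gys2, Nampt, Slc45a3 and Ppp1r3c, uncalled in the main fit, passed in it.

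Of the gene lists examined, the circadian clock lists held the most called genes, with 15 of 39 members called against 0.533% of all genes. Of the 19 core clock genes, Ciart, Bhlhe41, Per3, Nr1d1, Nr1d2 and Cry2 rose and Npas2 fell. Of the 20 output genes, Dbp, Usp2, Wee1, Tef, Lpin1, Alas1 and Por rose and Avpr1a fell. The median log2 fold change was 0.14 over the core list and 0.12 over the output list, against -0.0026 over all genes, with members on both sides of 0. Another 24 members did not pass the test, 10 of them above 0. When each of the 16 livers was left out in turn, 9 of the 15 kept their call in every fit (Alas1, Bhlhe41, Ciart, Dbp, Lpin1, Nr1d2, Per3, Por and Tef). Wee1 lost it in 2 fits (without Het male 3 or WT male 4), Usp2 in 3 (without Het male 3, Het male 4 or WT male 1), Cry2 in 9, Nr1d1 in 10, Avpr1a in 11 and Npas2 in 13. Of those 9, Ciart had 1.12 on log2(FPKM + 1) and did not pass (limma, adjusted p = 0.165), and with a replicate block Bhlhe41, Ciart and Lpin1 did not pass (adjusted p = 0.0522, 0.0522 and 0.120).

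The promoters of the 3 called clock genes with the highest and the 2 with the lowest changes are shown, since the E-box through which CLOCK, NPAS2 and BMAL1 act is a stretch of promoter sequence. Each is the RefSeq window of 250 bases before to 50 bases after the annotated start (build GRCm38.p6), written 5′ to 3′ on the gene's strand, with capitals marking an E-box, the letters CACGTG. The windows are chr7:45704997-45705296 (plus) for Dbp, chr3:95882179-95882478 (minus) for Ciart, chr6:145865371-145865670 (minus) for Bhlhe41, chr1:39194022-39194321 (plus) for Npas2 and chr10:122448249-122448548 (plus) for Avpr1a.
Dbp: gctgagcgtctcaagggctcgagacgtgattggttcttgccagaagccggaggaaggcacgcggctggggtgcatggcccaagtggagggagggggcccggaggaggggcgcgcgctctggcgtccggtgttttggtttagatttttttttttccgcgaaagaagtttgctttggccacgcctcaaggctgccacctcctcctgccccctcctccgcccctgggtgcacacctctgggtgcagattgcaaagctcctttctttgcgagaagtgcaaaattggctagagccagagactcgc
Ciart: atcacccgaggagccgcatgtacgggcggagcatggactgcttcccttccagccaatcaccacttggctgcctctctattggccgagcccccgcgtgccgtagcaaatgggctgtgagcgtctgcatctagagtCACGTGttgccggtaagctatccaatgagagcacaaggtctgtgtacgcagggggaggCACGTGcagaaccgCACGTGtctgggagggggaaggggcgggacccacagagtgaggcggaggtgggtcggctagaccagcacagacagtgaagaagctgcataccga
Bhlhe41: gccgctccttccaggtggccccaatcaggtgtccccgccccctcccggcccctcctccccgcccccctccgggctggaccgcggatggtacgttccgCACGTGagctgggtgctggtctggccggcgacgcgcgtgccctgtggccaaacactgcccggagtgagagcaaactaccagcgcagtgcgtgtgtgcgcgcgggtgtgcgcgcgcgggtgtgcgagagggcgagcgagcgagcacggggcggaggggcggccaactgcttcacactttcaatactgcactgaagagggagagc
Npas2: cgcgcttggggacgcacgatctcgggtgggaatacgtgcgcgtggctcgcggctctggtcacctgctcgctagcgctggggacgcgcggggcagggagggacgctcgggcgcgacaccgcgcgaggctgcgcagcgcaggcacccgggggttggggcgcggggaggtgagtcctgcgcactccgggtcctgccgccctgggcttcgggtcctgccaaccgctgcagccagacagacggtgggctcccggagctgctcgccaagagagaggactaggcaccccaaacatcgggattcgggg
Avpr1a: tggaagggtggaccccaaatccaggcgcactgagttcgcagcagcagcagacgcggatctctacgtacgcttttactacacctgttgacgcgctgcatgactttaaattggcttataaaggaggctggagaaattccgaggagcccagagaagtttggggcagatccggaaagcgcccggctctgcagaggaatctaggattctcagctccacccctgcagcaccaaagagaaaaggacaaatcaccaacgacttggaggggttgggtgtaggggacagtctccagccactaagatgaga

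Ciart held 3 E-boxes in this window, starting 116, 58 and 44 bases before the start site, and Bhlhe41 held 1, starting 153 bases before it. No other motif searched on both strands was found in these 5 windows. The motifs searched were the E-box, which reads the same on both strands, 2 forms of the D-box (TTATGTAA and TTACGTAA), the ROR element, the cAMP response element (TGACGTCA) and the glucocorticoid element. Of the 15 called clock genes 14 were matched in the promoter table, and 3 of these 14, Bhlhe41, Ciart and Tef, held an E-box, against 7.15% of all 32851 promoters of the same length. The D-box of the first form was in Per3 alone among the 14, against 0.938% of all promoters. The other shares over all promoters were 0.119% for the second D-box form, 0.219% for the ROR element, 1.79% for the cAMP response element and 0.475% for the glucocorticoid element. A clock gene was counted if any of its promoter entries held the motif, while the shares over all promoters count each entry by itself. The clock gene counts and those shares are therefore not fully alike. These are matches of letters within 300 bases and do not show that a factor binds.

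Of the repressing limb of the clock, Ciart, Bhlhe41 and Per3 rose most in Het livers. Ciart, a repressor of CLOCK and BMAL1, lay at 4.75, 5.98, 3.57 and 2.12 CPM in Het females and 0.781, 0.786, 2.13 and 4.797 CPM in Het males. It lay at 0.240, 0.298, 0.234 and 0.226 CPM in WT females and 0.128, 1.09, 0.383 and 0.228 CPM in WT males. Only WT male 2 reached into the Het range (log2 fold change 3.11, SE 0.60, adjusted p = 0.0112). Bhlhe41 (DEC2), which competes with the activators for E-boxes, lay at 0.350 to 3.85 CPM in Het livers (median 1.97), against 0.0260 to 0.911 CPM in WT livers (median 0.393). Its log2 fold change was 2.52 (SE 0.45, adjusted p = 0.00578), and Het male 1 and Het female 3 overlapped the WT range. Per3, a period gene, lay at 31.9, 37.9, 23.0 and 27.7 CPM in Het females and 4.39, 7.09, 17.1 and 14.0 CPM in Het males. It lay at 5.79, 6.45, 4.66 and 5.74 CPM in WT females and 1.08, 3.72, 4.97 and 1.74 CPM in WT males. Apart from Het male 1, every Het library was above every WT one (log2 fold change 2.13, SE 0.31, adjusted p = 0.000578).

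The REV-ERB genes rose as well. Nr1d2 was at 81.9 to 125 CPM in Het livers (median 108), against 38.4 to 70.6 CPM in WT livers (median 54.7), with no overlap (log2 fold change 0.93, SE 0.12, adjusted p = 0.000173). Nr1d1 was at 64.5 to 217 CPM in Het livers (median 146), against 22.6 to 116 CPM in WT livers (median 54.4), with every Het female above every WT library and overlap among the males (log2 fold change 1.18, SE 0.27, adjusted p = 0.0347). Cry2, a cryptochrome, was at 34.1 ± 8.90 CPM in Het and 21.7 ± 5.37 CPM in WT livers (SD, n = 8 each), a log2 fold change of 0.62 (adjusted p = 0.0300). Per1 and Per2 had log2 fold changes of 0.94 and 0.96 but did not pass the test (adjusted p = 0.281 and 0.183). Bhlhe40, the paralog of Bhlhe41, had 0.70 (adjusted p = 0.107). Ciart, Nr1d1, Cry2, Dbp and Tef each overlap a gene on the opposite strand, so part of their counts could belong to that gene. Per3 overlaps Camta1 on the same strand over 41014 bases, so the same holds for Per3.

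Of the activating limb, Npas2 fell. This stand-in for CLOCK lay at 0.581, 0.905, 1.09 and 1.54 CPM in Het females and 2.48, 1.57, 0.582 and 0.309 CPM in Het males. It lay at 4.91, 4.83, 4.82 and 4.55 CPM in WT females and 5.84, 2.07, 3.23 and 5.65 CPM in WT males. Het male 1 and WT male 2 crossed, and the other libraries kept apart (log2 fold change -1.98, SE 0.46, adjusted p = 0.0405). Arntl was at 3.79 to 21.9 CPM in Het livers (median 7.49), against 17.3 to 27.8 CPM in WT livers (median 20.2). Het male 1 was the only Het library inside the WT range of Arntl, yet its log2 fold change of -1.17 (SE 0.39) did not pass the test (adjusted p = 0.217). Clock (-0.38), Cry1 (-0.58) and Nfil3 (-0.83), a repressor that opposes DBP, were below 0 without passing (adjusted p = 0.329, 0.105 and 0.113). The receptor gene Rora and the kinase genes Csnk1d and Csnk1e had log2 fold changes between -0.07 and 0.14.

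Among the output factors, Dbp had the highest change of any called gene after Abhd1. It lay at 89.5, 80.9, 44.6 and 49.1 CPM in Het females and 4.66, 18.8, 34.1 and 28.4 CPM in Het males. It lay at 3.25, 4.19, 1.93 and 3.53 CPM in WT females and 0.282, 6.70, 5.005 and 0.514 CPM in WT males. Het male 1 was the only Het library within the WT range (log2 fold change 3.54, SE 0.47, adjusted p = 0.000173). Tef, a factor of the same PAR bZIP family, was at 65.6 to 190 CPM in Het livers (median 139), against 31.5 to 69.9 CPM in WT livers (median 55.4), a log2 fold change of 1.30 (SE 0.20, adjusted p = 0.000906). Hlf, the third of the family, was at 43.5 ± 11.2 CPM in Het and 40.01 ± 7.46 CPM in WT livers (log2 fold change 0.10, adjusted p = 0.826). The deubiquitinase gene Usp2 was at 2.85 to 19.97 CPM in Het livers (median 11.8), against 1.69 to 4.10 CPM in WT livers (median 2.50), a log2 fold change of 2.13 (SE 0.44, adjusted p = 0.0197).

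The metabolic outputs that rose have roles in haem, drug and lipid handling. Alas1, the rate-limiting enzyme of haem synthesis, was at 244 to 653 CPM in Het livers (median 482), against 128 to 287 CPM in WT livers (median 211), a log2 fold change of 1.12 (SE 0.22, adjusted p = 0.0146). Por, which passes electrons to the cytochromes P450, was at 202 to 506.9 CPM in Het livers (median 365), against 165 to 261 CPM in WT livers (median 231), a log2 fold change of 0.68 (SE 0.13, adjusted p = 0.00790). Lpin1 and Lpin2, phosphatidate phosphatases of triglyceride synthesis, rose by log2 fold changes of 1.18 (adjusted p = 0.0146) and 0.71 (adjusted p = 0.0125). Among females Lpin1 was at 127 to 267 CPM in Het and 39.8 to 85.3 CPM in WT livers, and among males at 159 to 571 CPM in Het and 191 to 262 CPM in WT livers, so the groups overlapped among males and not among females. Wee1, a kinase that holds back mitosis and a known clock output, rose (log2 fold change 1.37, SE 0.29, adjusted p = 0.0210). The vasopressin receptor gene Avpr1a fell (log2 fold change -0.56, SE 0.13, adjusted p = 0.0388).

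**Figure D2:**
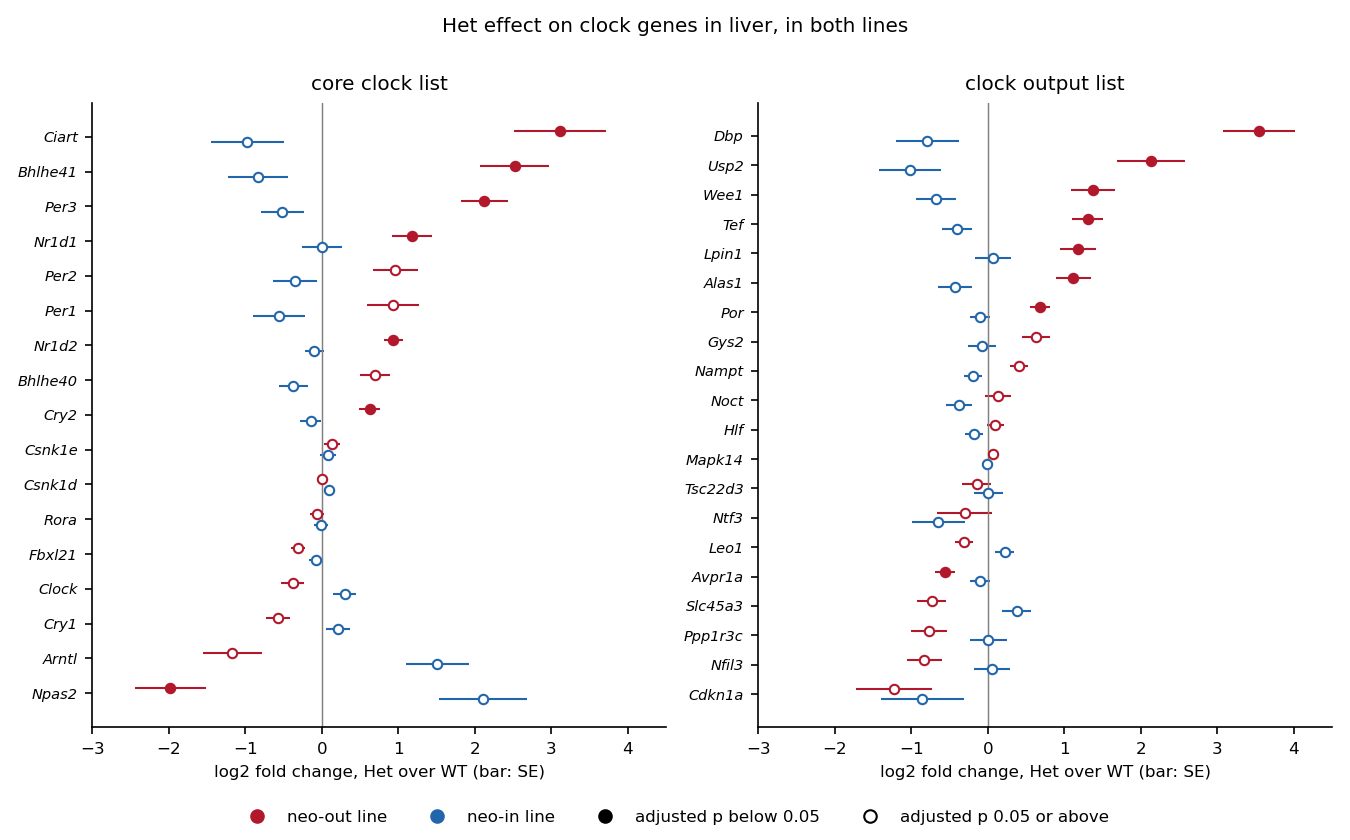
Log2 fold change of Het over WT livers for 17 core clock genes (left) and the 20 clock output genes (right), with standard errors, in the neo-out line (red) and the neo-in line (blue), and filled symbols where the adjusted p was below 0.05. In the neo-out line 15 of those shown were called, from -1.98 for Npas2 to 3.54 for Dbp, and in the neo-in line none was.

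A clock score was computed for every library to place these genes on 1 scale. It is the mean log2 CPM of Dbp, Tef, Nr1d1, Nr1d2, Ciart, Per3 and Bhlhe41 less that of Arntl, Npas2, Nfil3, Clock and Cry1, each centred over the libraries of a tissue, and it is given without a test. In liver it was -2.22 to 1.86 in neo-out Het (median 0.53) and -4.31 to -1.67 in neo-out WT animals (median -2.48). Het male 1, at -2.22, was the only Het library inside the WT range. The neo-in livers lay at -1.15 to 3.20 in Het (median 0.34) and -0.30 to 3.18 in WT animals (median 1.94), so the neo-out WT livers were below all other groups but for that Het male. Dbp showed the same order, with medians of 39.4 CPM in neo-out Het, 3.39 CPM in neo-out WT, 32.5 CPM in neo-in Het and 59.7 CPM in neo-in WT livers.

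The same score was computed for the brains of the same animals. In cortex it was -0.14 to 0.06 in neo-out Het (median 0.00) and -0.45 to -0.13 in neo-out WT animals (median -0.35). Het male 1, inside the WT range in liver, had 0.01 in cortex, above every neo-out WT animal. Over the 16 neo-out animals the Pearson correlation of the liver and cortex scores was 0.81. In striatum it was -0.26 to -0.02 in 7 neo-out Het (median -0.07) and -0.43 to -0.18 in 8 neo-out WT animals (median -0.37). The genes added in the score moved both ways there. Dbp (-0.19), Ciart (-0.10), Tef (-0.09) and Per3 (-0.04) were below 0, and Nr1d2 (0.19), Nr1d1 (0.12) and Bhlhe41 (0.08) above it. Among the genes subtracted, Npas2 (-0.63) and Arntl (-0.41) had the largest changes, against -0.10 for Nfil3, -0.09 for Cry1 and 0.02 for Clock. The neo-in animals had medians of 0.17 in Het and 0.20 in WT cortex, and 0.18 in Het and 0.32 in WT striatum, so the neo-out WT animals had the lowest median in each tissue. A difference in clock phase at collection and an effect of the allele cannot be told apart in this design, as the hour of collection is not among the labels used here.

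**Figure D3:**
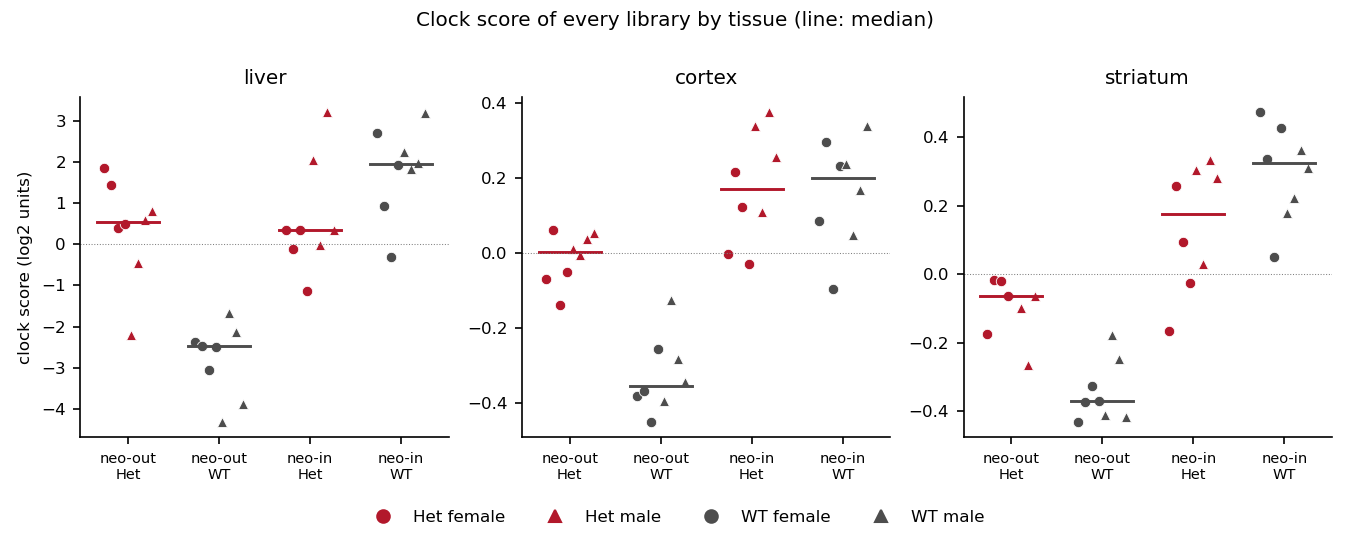
Clock score of every library in liver, cortex and striatum, in log2 units, with females as circles, males as triangles and a line at the median of each group. In all 3 tissues the neo-out WT animals have the lowest median, and in liver only 1 neo-out Het male, at -2.22, falls within their range of -4.31 to -1.67.

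The clock genes were then examined one by one in the neo-out brains. In cortex, where 489 of 17444 genes were called (2.80%), 6 of 37 clock genes passed: Nr1d2 (0.24), Dbp (0.30) and Slc45a3 (0.94) rose and Arntl (-0.26), Nfil3 (-0.25) and Ppp1r3c (-0.23) fell. In striatum, where 3185 of 17703 genes were called (18%), 3 of 38 rose, among them Nr1d2 (0.19), and 11 fell, among them Npas2 (-0.63) and Arntl (-0.41). Dbp and Tef fell in striatum (-0.19 and -0.09, adjusted p = 0.0469 and 0.0368), opposite to the liver. Slc45a3, a solute carrier, rose in cortex (0.94) and striatum (0.87) and had -0.73 in liver without passing the test there (adjusted p = 0.0796). Of the clock genes called in liver, 9 of 14 had the same sign in cortex and 8 of 15 in striatum. Leaving out 1 library moved the count of 6 in cortex to 3 without Het female 2, WT female 3 or WT male 1, and the count of 14 in striatum to 9 without Het male 2, Het male 3 or WT female 1.

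The design allowed the clock score to be entered as a covariate, which asks how much of the Het effect remains at equal score. With the liver score, 2 genes were called (Abhd1 and Slc46a3), and with the cortex score of the same animal, 1 (Abhd1). None of the 15 clock genes passed in either fit, but their log2 fold changes did not all go to 0. With the cortex score Dbp had 2.24 (SE 0.58), Bhlhe41 1.72 (SE 0.62), Alas1 1.21 (SE 0.35) and Nr1d2 0.68 (SE 0.18). Smaller in size were Npas2, at -0.45 (SE 0.64), Cry2, at 0.28 (SE 0.19), and Avpr1a, at -0.22 (SE 0.18). With the liver score Alas1 had 1.14 (SE 0.36), Dbp 1.01 (SE 0.27) and Tef 0.07 (SE 0.08). The median size of the change of the 81 genes was 0.28 with the liver score and 0.43 with the cortex score, against 0.62 without a covariate, and the median SE was 0.15 and 0.18, against 0.13. The liver score is built from 12 of the clock genes themselves, and both scores were mostly higher in neo-out Het than in neo-out WT animals, so score and genotype cannot be fully told apart in these fits. The cortex score did not stand in fully for the liver score. Het male 1 had -2.22 in liver and 0.01 in cortex, and Het female 1 had 1.86 in liver and -0.07 in cortex. Changes at equal cortex score are therefore not changes at equal liver score. Abhd1 had a log2 fold change of 4.12 with the liver score and 4.17 with the cortex score. Htt kept most of its size, at -0.44 (SE 0.12) and -0.40 (SE 0.11), but did not pass the test (adjusted p = 0.527 and 0.920).

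**Figure D4:**
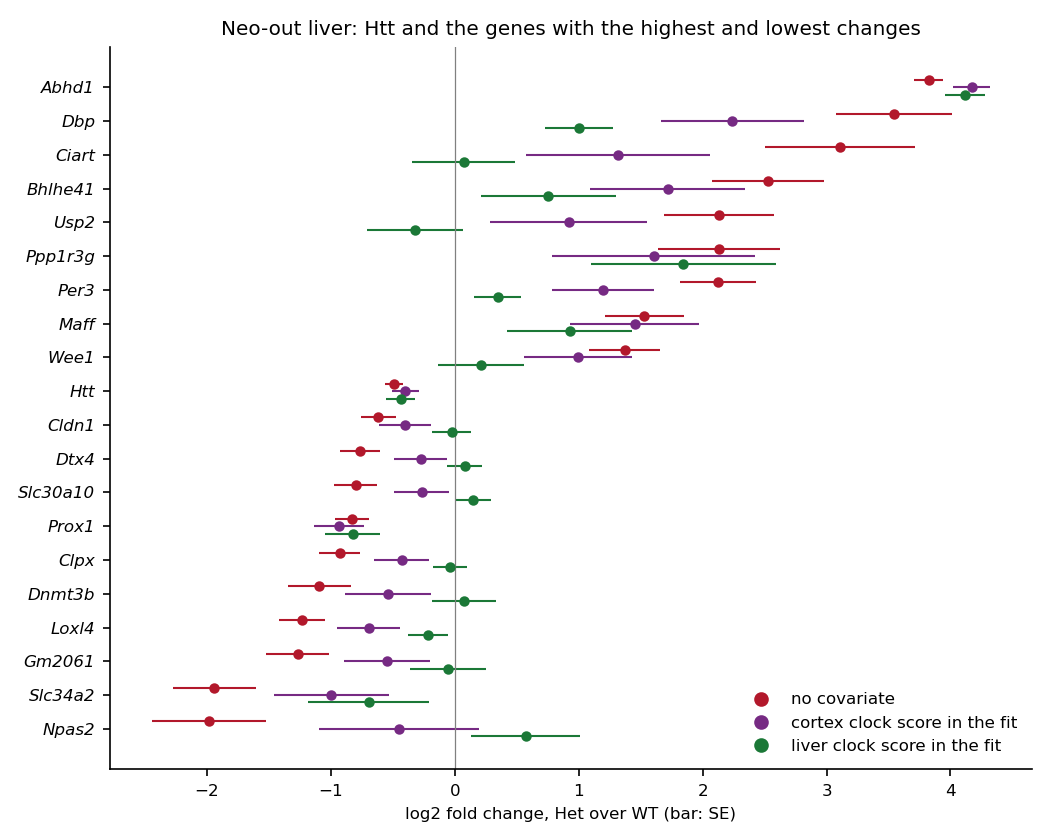
Log2 fold change of Het over WT neo-out livers, with standard errors, for Htt and for genes with the highest and lowest changes, with no covariate (red), with the cortex clock score (purple) and with the liver clock score (green). Abhd1, Ppp1r3g, Prox1 and Htt stay near their first value, while Ciart and Clpx lie near 0 with the liver score.

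Outside the clock lists, the genes with the highest changes included some that varied widely among Het males. Ppp1r3g, a glycogen-targeting subunit of protein phosphatase 1, was in the range 0.698 to 1.56 CPM in Het females, with 22.1, 0.539, 19.8 and 13.6 CPM in Het males. It lay at 0.405 to 1.28 CPM in WT females and 0.913 to 1.57 CPM in WT males (log2 fold change 2.13, SE 0.49, adjusted p = 0.0388). Het males 1, 3 and 4 were above every other library, and Het male 2 was within the WT range. Maff, a small MAF factor, rose (log2 fold change 1.53, SE 0.32, adjusted p = 0.0204), with its highest value of 23.4 CPM in Het male 3. The heat shock gene Hspa1a was among the 4 genes called when males were taken alone (log2 fold change 3.81, adjusted p = 0.00884), though its near-identical copy Hspa1b could share its reads.

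Among the genes that fell, Slc34a2, a phosphate transporter, was at 0.323 to 1.54 CPM in Het livers (median 0.884), against 1.04 to 10.03 CPM in WT livers (median 3.19), a log2 fold change of -1.94 (SE 0.33, adjusted p = 0.00346). All 4 WT females, at 4.10 to 10.03 CPM, were above every Het library. Loxl4, a lysyl oxidase of the extracellular matrix, was at 1.11 to 2.77 CPM in Het livers (median 1.95), against 2.73 to 6.42 CPM in WT livers (median 5.15), a log2 fold change of -1.23 (SE 0.18, adjusted p = 0.000650). Clpx, a subunit of the mitochondrial ClpXP protease that also acts on ALAS, was at 93.2 to 179 CPM in Het livers (median 141), against 228 to 361 CPM in WT livers (median 243), with no overlap (log2 fold change -0.93, SE 0.17, adjusted p = 0.00595). Prox1, a transcription factor of hepatocyte identity, was at 48.8 to 122 CPM in Het livers (median 80.4), against 77.7 to 192 CPM in WT livers (median 144), a log2 fold change of -0.83 (SE 0.14, adjusted p = 0.00192).

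Dnmt3b, a DNA methyltransferase (-1.09, adjusted p = 0.0388), Dtx4, a ubiquitin ligase (-0.76, adjusted p = 0.0231), and Cldn1, a tight junction protein (-0.62, adjusted p = 0.0388), fell on the log2 scale. Slc30a10, a manganese exporter, fell to 36.7 ± 10.4 CPM in Het livers, against 63.7 ± 10.7 CPM in WT livers (SD, n = 8 each), a log2 fold change of -0.80 (SE 0.17, adjusted p = 0.0287). The noncoding Gm2061 overlaps Slc30a10 over 721 bases on the opposite strand and fell too (-1.27, adjusted p = 0.0146), so part of the signal of either may belong to the other. Outside the clock lists, calls were lost in 2 of the 16 fits with 1 liver left out for Maff (without Het male 3 or WT female 2), in 5 for Dtx4, in 8 for Slc30a10, in 11 for Egr1, in 12 for Ppargc1b and in 13 each for Cldn1, Dnmt3b and Ppp1r3g. The largest adjusted p of any named called gene in these fits was 0.182.

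The other metabolic lists held few called genes. In drug metabolism 2 of 36 rose, Por and Cyp2a4, a female-biased steroid hydroxylase (log2 fold change 1.31, adjusted p = 0.00879). Cyp2a4 has the near-identical copy Cyp2a5 (1.03, adjusted p = 0.106), and reads could be split between them. In lipogenesis 2 of 23 rose (Lpin1 and Lpin2), in PPAR alpha and fatty acid oxidation 1 of 33 (Ppargc1b, a coactivator of mitochondrial genes, 0.97, adjusted p = 0.0480), in glucose metabolism 1 of 30 (Ppp1r3g), and in cell cycle 1 of 24 (Wee1). No member passed in the lists of cholesterol synthesis (24), bile acids (25), urea cycle and amino acids (31), acute phase (30), interferon targets (30), the unfolded protein response (32), NRF2 targets (23), oxidative phosphorylation (32), the proteasome (27) or glucocorticoid response (17), against 0.533% of all genes.

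Several lists with few or no called genes had most members on 1 side of 0. Acute phase genes had a median log2 fold change of -0.29, with 4 of 30 above 0, and cholesterol synthesis genes 0.17, with 23 of 24 above 0. Oxidative phosphorylation genes had 0.09, with 32 of 32 above 0. Over all genes 7466 of 15208 were above 0. Such a lean was not particular to these lists. Above 0 were also 28 of 33 PPAR alpha and fatty acid oxidation genes, 20 of 23 NRF2 targets and 13 of 15 temperature-responsive genes. Endothelial genes had 15 of 16 and stellate genes 3 of 20 above 0, while the proteasome (17 of 27) and interferon targets (17 of 30) were nearer even. The immediate early list had 0.65, with 21 of 23 above 0 and 2 called, Egr1 and Maff. The bile duct list had -0.42, with 0 of 9 above 0, 5 at an unadjusted p below 0.05 and none called; its summed level was 54.5 to 105 CPM in Het and 64.3 to 160 CPM in WT livers. The part of bile duct cells in other results was not tested, and no test of a list was made.

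Females and males were compared within the same fit. In females alone 112 genes were called (0.736%), 68 up and 44 down, and in males alone 4 (0.0263%): Abhd1, Htt, Hspa1a and 9830144P21Rik. This gap in counts is no test of a difference between the sexes. The genotype by sex contrast, the female effect less the male effect, called 17 genes (0.112%), 7 higher and 10 lower in females, of which Egr1 alone was among the 81. Egr1, an immediate early transcription factor, had a log2 fold change of 3.46 in females and -0.40 in males (difference 3.86, SE 0.71, adjusted p = 0.0204). Of the called clock genes none passed this contrast, though Dbp, Ciart, Bhlhe41 and Usp2 had values of 4.35, 4.01, 3.10 and 2.78 in females and 2.74, 2.21, 1.95 and 1.49 in males.

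Other genes in this contrast had effects of opposite sign in the sexes. Zbtb16 (PLZF), a glucocorticoid-responsive zinc finger factor, had 2.19 in females and -1.21 in males (difference 3.40, SE 0.52, adjusted p = 0.00248). Pfkfb1, which sets the level of fructose 2,6-bisphosphate, had 0.84 in females and -0.51 in males (difference 1.35, adjusted p = 0.0140). Hhex, a homeobox factor of liver development, had -1.77 in females and 1.02 in males (difference -2.79, SE 0.36, adjusted p = 0.000346). Il1a, a cytokine, had -0.88 in females and 0.81 in males (difference -1.69, adjusted p = 0.00248). The count of 17 was 4 to 33 when 1 library was left out. It moved by over 1.5 times without Het males 1 (5), 2 (32) or 3 (33), Het females 1 (7), 2 (7), 3 (27) or 4 (4), WT females 2 (8) or 3 (5), and WT males 1 (6), 2 (9) or 3 (11).

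The neo-out effect was then set against that of the neo-in line. In neo-in livers 82 genes were called (0.539%), and 2 genes, Abhd1 and Htt, were called in both lines. Of the 81 neo-out genes, 61 had the opposite sign in neo-in livers and 20 the same. The difference of the 2 effects was called for 127 genes (0.835%), 50 higher and 77 lower in neo-out. With limma the split was 56 higher and 35 lower on log2(FPKM + 1), and 55 higher and 37 lower on log2(FPKM + 0.1). Dbp had 3.54 in neo-out and -0.79 in neo-in livers (difference 4.33, SE 0.62, adjusted p = 0.000933), and Npas2 had -1.98 in neo-out and 2.11 in neo-in livers (difference -4.09, adjusted p = 0.00646). Arntl, uncalled in either line, had -1.17 in neo-out and 1.51 in neo-in livers (difference -2.68, adjusted p = 0.0200). Of the 15 called clock genes 12 had the opposite sign in neo-in livers, and the line difference was called for 6 of the 19 core and 7 of the 20 output genes.

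Further genes that differed by line were outside the clock lists. Narf rose in neo-out livers (0.52) and had -0.27 in neo-in livers (difference 0.79, adjusted p = 0.00296). Blcap had -0.46 in neo-out and 0.24 in neo-in livers (difference -0.70, adjusted p = 0.000933), Loxl4 had -1.23 in neo-out and 0.37 in neo-in livers (adjusted p = 0.00394) and Clpx had -0.93 in neo-out and 0.45 in neo-in livers (adjusted p = 0.00398). Plat, tissue plasminogen activator, had -0.61 in neo-out and 0.93 in neo-in livers (difference -1.54, adjusted p = 0.00394), and Asap2 had -0.89 in neo-out and 0.94 in neo-in livers (difference -1.84, adjusted p = 0.00398). Both passed the test in neo-in livers and not in neo-out livers. With the liver clock score in the fit, the line differences were 0.33 for Narf, -0.32 for Blcap and -0.15 for Loxl4. They were -0.99 for Plat, -0.12 for Clpx and -0.30 for Asap2, and none of these passed the test. The lines also differ in their WT groups, whose clock scores did not overlap in liver, so score and line cannot be fully told apart. The cause of the line differences was not tested.

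The count of 127 was 50 to 299 when 1 of the 32 livers was left out. It moved by over 1.5 times without neo-out Het males 2 (204), 3 (72) or 4 (70), Het female 1 (63), WT females 1 (72) or 2 (72), or WT males 3 (62) or 4 (84). Among neo-in livers it did so without Het males 2 (50), 3 (267) or 4 (56), Het females 3 (77) or 4 (66), WT females 1 (71) or 2 (70), or WT males 1 (75), 3 (299) or 4 (54).

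**Figure D5:**
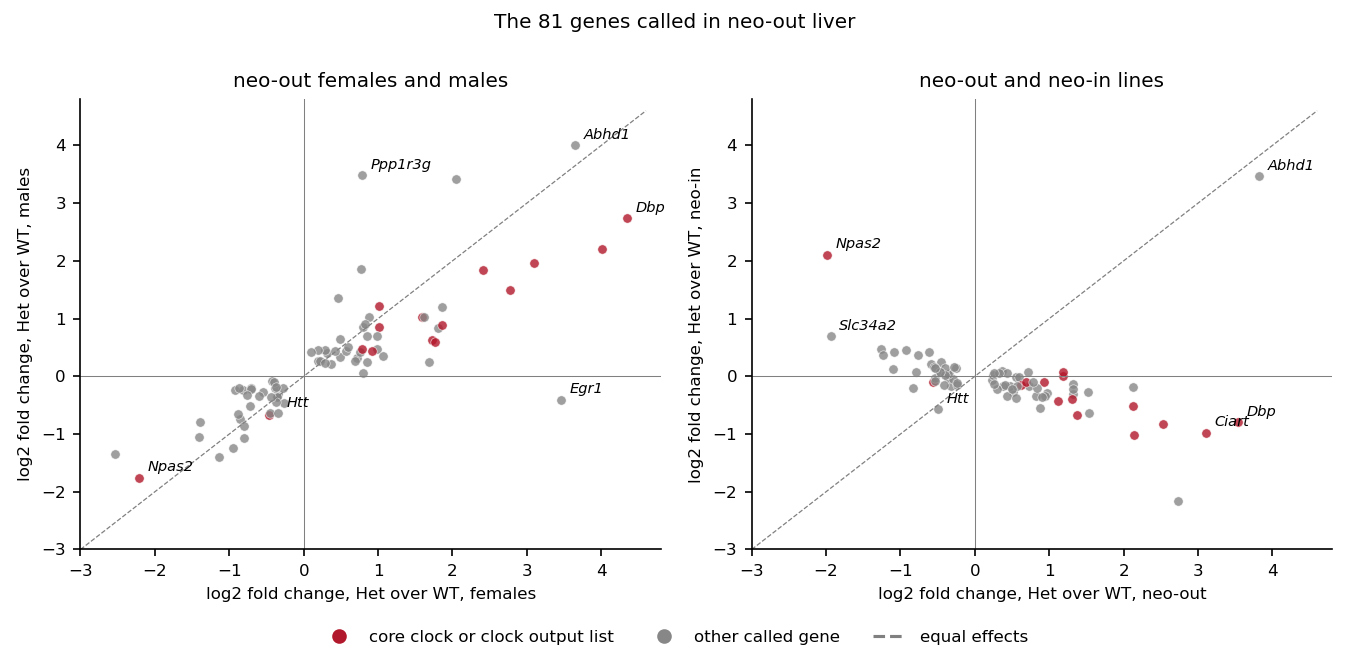
Log2 fold change of Het over WT for the 81 genes called in neo-out liver: females against males (left) and the neo-out against the neo-in line (right), with clock genes in red and a dashed line at equal effects. The genes were called on the mean of both sexes, so their agreement in sign in the left panel, with Egr1 the exception, is largely fixed by that choice, and in the right panel 61 lie on opposite sides of 0 while Abhd1 and Htt lie near the dashed line.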

How the data were processed

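RNA was sequenced from liver, cortex and striatum of Het and WT mice of both lines. The authors deposited an expected count and an FPKM value (fragments per kilobase and depth) for 39179 genes in 95 libraries, with alignment counts per library. CASAVA 1.8.2 and mm10 are named in the submitters' processing notes; for aligner, counter, gene model and strand the sources used here give nothing. Of the deposited expected counts above 1, 27.4% were not whole (tolerance 0.001), and all were rounded.

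All 32 livers entered 1 edgeR 4.0.16 quasi-likelihood fit (R 4.3.3, TMM scaling, filterByExpr) with a coefficient for each line, genotype and sex. This left 15208 genes and 24 residual degrees of freedom. The Het effect averages those of both sexes. Genes were called at a Benjamini-Hochberg adjusted p below 0.05; every adjusted p is from edgeR unless named otherwise. CPM are computed from the rounded counts with TMM, and log2 CPM have a prior count of 2. Standard errors come from the log2 fold change and its F statistic. The deposited FPKM were used in alternatives alone (limma 3.58.1), as was DESeq2 1.42.0.

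Counts were simulated for the neo-out liver comparison with 15208 genes, with changes set in genes averaging 1 CPM or more. Each change was equal in both sexes, and each gene had 1 spread for all groups, which the real data need not meet. Of 67 genes changed 1.5-fold 80.6% were recovered, of 67 changed 2-fold 97.0% and of 66 changed 4-fold 100%. Of the unchanged genes 12 were called. The deposited alignment counts were 92.8 M to 125 M in Het and 88.1 M to 185.9 M in WT livers. No 2 libraries of a group agreed within counting noise (lowest chi-square per gene 19.4 over 24 pairs).

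Genes named are Htt, the clock lists, the 10 highest and 10 lowest called changes averaging 1 CPM or more and agreeing in direction between sexes, as many as 4 genes of lowest p from every other list (values given where called), and the 5 genes of lowest p each way in the line and sex contrasts; Atraid, Preb, Cyp2a5 and the genes called in males or without overlap were added after their values were seen. Some genes that the rule selects are not reported here. The comparison, the lists and the tests were chosen with earlier results of these data known. Gene coordinates are from GENCODE M21 and promoters from RefSeq (GRCm38.p6). Alternatives were other scalings, filters, units and tests, covariates, a replicate block, single sexes and leaving out each library.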

Additional observations from a re-analysis of the deposited data

Results flagged for a closer look

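The total count of the neo-out WT male 3 liver, 68.4 M, stood apart from the other 7 WT livers at 34.6 M to 46.1 M (gap over range 0.660). It was the 1 such case among 141 groups of 8 values examined, where chance gives about 1 in 20.

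Of 67 named genes examined, 26 had a Het effect that differed between the lines by the test of the difference (edgeR, adjusted p below 0.05), against 0.835% of all genes tested. The 5 of lowest p each way in this contrast were named for it, so their part of the count is fixed by that choice. Those higher in neo-out, as the difference in log2 fold change, were Dbp 4.33, Ciart 4.08, Bhlhe41 3.36, Usp2 3.15, Per3 2.65, Maff 2.17, Wee1 2.05, Tef 1.71, Alas1 1.55, Cyp2a4 1.54, Nr1d2 1.03, Narf 0.79 and Por 0.79. Those lower were Npas2 -4.09, Arntl -2.68, Slc34a2 -2.64, Asap2 -1.84, Gm2061 -1.74, Loxl4 -1.61, Plat -1.54, Dnmt3b -1.50, Clpx -1.38, Dtx4 -1.13, Slc45a3 -1.11, Cldn1 -1.03 and Blcap -0.70.

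The Het effect of 10 named genes differed between females and males by the test of the difference, against 0.112% of all genes tested. All 10 were named as the 5 of lowest p each way in this contrast, so their number is fixed by that choice. The effect was higher in females for Egr1 3.86, Zbtb16 3.40, Slc25a34 1.70, Pfkfb1 1.35 and Fam214a 1.26, and lower in females for Hhex -2.79, Il1a -1.69, Jade3 -1.10, Zfp568 -0.76 and Rybp -0.76.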

How the results depend on the processing

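The 81 calls became 166 with DESeq2, 31 with limma on log2(FPKM + 1) without a filter, 2 with the liver clock score and 1 with the cortex clock score as a covariate, and 4 in males alone. The 127 line differences became 320 with DESeq2, 31 with unfiltered log2(FPKM + 1), 2 with the liver score and 0 with the cortex score, and the 17 sex differences 86 with DESeq2 and 27 with limma on log2(FPKM + 1). The 6 clock genes called in cortex became 10 with DESeq2. The split of the 81 calls, 48 higher and 33 lower, and that of the 127, 50 higher and 77 lower, were each 15 higher and 16 lower with unfiltered log2(FPKM + 1). In that fit Bhlhe41 (0.42), Ciart (1.12), Alas1 (1.04) and Lpin1 (1.07) did not pass (limma, adjusted p = 0.358, 0.323, 0.0558 and 0.0641). DESeq2 recovered all of the 81, 127 and 17 genes. Leaving out 1 library gave 32 to 129, 50 to 299 and 4 to 33 calls for the 3 liver counts, -0.53 to -0.46 for Htt, and 3 to 7 and 9 to 15 clock genes in cortex and striatum. The Htt effect kept its direction and lost its call with the liver score (-0.44), with the cortex score (-0.40) and in females alone (-0.35). The labels do not say that a replicate number marks a shared litter or day, and 3 of 8 same-number pairs had a correlation of deviations above 0.1 (-0.104 to 0.242). With the replicate block 30 genes were called, 28 of them among the 81. Of 32 named called genes besides Htt, 15 lost their call when some library was left out.

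Directions reversed with the liver score for Arntl 0.87, Clock 0.35, Npas2 0.57, Per1 -0.16, Per2 -0.38, Cry2 -0.052, Rora 0.058, Csnk1d 0.0064, Hlf -0.29, Nfil3 0.20, Usp2 -0.32, Nampt -0.017, Cdkn1a 0.35, Gys2 -0.14, Slc45a3 0.13, Leo1 0.27, Ntf3 0.19, Dnmt3b 0.078, Slc30a10 0.14 and Dtx4 0.082. They reversed with the cortex score for Clock 0.043, Per1 -0.39, Hlf -0.037 and Noct -0.20, in females alone for Rora 0.016, Csnk1d 0.032 and Noct -0.25, and in males alone for Hlf -0.027, Tsc22d3 0.36 and Egr1 -0.40. Csnk1d, at -0.0030, was 0.0044 with DESeq2, 0.0040 with RLE factors and -0.027 to 0.013 with 1 library left out. The cause of these moves was not tested. Arntl, Clock, Npas2 and Nfil3 are subtracted in the liver score itself, so their values with that score are in part set by its makeup.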
